A study of Homo sapiens with 9 samples.

Results

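The circadian clock genes described here are CLOCK, PER1, PER2, PER3, CRY1, CRY2, NR1D1, NR1D2, DBP and BHLHE40. They were chosen by symbol, and each of the 10 matched 1 row among the 60651 gene rows of the deposited count table. All 10 passed the filter on low counts. RNA of HCT116, an established human colorectal cancer line, was sequenced in 9 libraries, labelled in 3 groups of 3. Cells of shSLC6A3 DMSO carried a short hairpin RNA against SLC6A3, the dopamine transporter gene, and received the solvent DMSO. Those of shCTRL VXN carried a control hairpin and received VXN, an abbreviation left unexplained in the labels, and those of shCTRL DMSO carried the control hairpin and received DMSO. The labels give all libraries the genotype WT and give no dose, duration, hairpin clone, hour of harvest or synchronisation of the cells. Nothing in them says that replicates were separate cultures, so every p-value measures the spread between libraries, which may be technical.

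The 2 comparison tables that the authors deposited rest on other sets of libraries than the labels. Rerun on 3 particular trios of libraries, DESeq2 gave back every one of the 38907 p-values in each table of the authors to within 1e-06. Run on the labelled groups it gave back 0% for shCTRL V and 1.41% for shDAT D. By these trios, shCTRL V of the tables is made of replicate 3 of shCTRL DMSO, replicate 1 of shSLC6A3 DMSO and replicate 3 of shCTRL VXN. Likewise, shDAT D is made of replicates 1 and 2 of shCTRL DMSO with replicate 1 of shCTRL VXN. The control of both tables, shCTRL D, is made of replicates 2 and 3 of shSLC6A3 DMSO with replicate 2 of shCTRL VXN. Values of a table group are given in that library order throughout. Both sets of names are used as given, and neither is taken to show which treatment a library had.

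The circadian clock is a transcriptional loop that runs in most cells of the body, the intestinal epithelium included. CLOCK pairs with BMAL1 (gene ARNTL) on E-box elements and switches on the PER and CRY genes, whose proteins return to the nucleus and inhibit that pair. NR1D1 and NR1D2 encode REV-ERB alpha and REV-ERB beta, repressors that close a further loop on ARNTL, while DBP is an activator of D-box genes and BHLHE40 (DEC1) a repressor that competes for E-boxes. In a culture whose cells are not synchronised, the phases of single cells average out in bulk RNA.

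The promoters of 5 members are shown because they carry the elements through which this loop works, or, in BHLHE40, PER1, NR1D1 and NR1D2, belong to the genes with the clearest differences below or the most elements. Each is a RefSeq window of 300 bases around a gene start in GRCh38.p14, written 5′ to 3′ on the gene's strand. Capitals mark an E-box (CACGTG), an E'-box (CACGTT or, on the other strand, AACGTG), a D-box (TTATGTAA or TTACGTAA, other strand TTACATAA) or the core of the ROR and REV-ERB element (TAGGTCA or TGGGTCA, other strand TGACCTA or TGACCCA). The windows are chr3:4979187-4979486 on the plus strand for BHLHE40, chr17:8152355-8152654 on the minus strand for PER1, chr3:23945871-23946170 on the plus strand for NR1D2, chr17:40100540-40100839 on the minus strand for NR1D1 and chr2:238288561-238288860 on the minus strand for PER2.
BHLHE40: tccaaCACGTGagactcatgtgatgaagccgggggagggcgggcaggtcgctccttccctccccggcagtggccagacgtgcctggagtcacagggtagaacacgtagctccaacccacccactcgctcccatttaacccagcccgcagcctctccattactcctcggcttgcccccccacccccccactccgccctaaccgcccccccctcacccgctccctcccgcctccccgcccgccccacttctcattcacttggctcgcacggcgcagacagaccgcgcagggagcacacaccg
PER1: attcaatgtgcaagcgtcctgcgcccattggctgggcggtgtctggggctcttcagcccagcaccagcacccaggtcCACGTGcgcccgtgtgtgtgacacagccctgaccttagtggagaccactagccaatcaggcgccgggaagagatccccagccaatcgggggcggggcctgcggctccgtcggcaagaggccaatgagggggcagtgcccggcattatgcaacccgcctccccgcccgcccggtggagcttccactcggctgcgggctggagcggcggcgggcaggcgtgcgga
NR1D2: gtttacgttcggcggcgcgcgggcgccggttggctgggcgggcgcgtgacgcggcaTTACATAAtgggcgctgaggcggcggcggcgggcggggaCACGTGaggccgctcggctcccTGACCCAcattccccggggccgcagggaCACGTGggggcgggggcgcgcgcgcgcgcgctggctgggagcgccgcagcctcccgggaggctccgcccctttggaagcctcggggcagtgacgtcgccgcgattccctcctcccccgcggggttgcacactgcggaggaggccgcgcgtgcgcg
NR1D1: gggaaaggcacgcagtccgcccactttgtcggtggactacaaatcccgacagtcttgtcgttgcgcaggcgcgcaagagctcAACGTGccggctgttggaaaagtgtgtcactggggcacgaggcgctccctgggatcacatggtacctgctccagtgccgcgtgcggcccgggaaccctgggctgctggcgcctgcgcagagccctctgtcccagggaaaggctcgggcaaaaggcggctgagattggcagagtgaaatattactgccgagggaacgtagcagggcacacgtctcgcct
PER2: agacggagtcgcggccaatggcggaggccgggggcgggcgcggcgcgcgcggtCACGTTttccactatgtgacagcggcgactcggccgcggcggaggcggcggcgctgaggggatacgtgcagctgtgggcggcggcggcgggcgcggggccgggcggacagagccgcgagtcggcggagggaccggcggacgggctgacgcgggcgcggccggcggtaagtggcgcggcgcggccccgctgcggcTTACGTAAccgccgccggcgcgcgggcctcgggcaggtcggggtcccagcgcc

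The E-box of PER1 began 173 bases before the annotated start and that of BHLHE40 began 245 bases before it. The NR1D2 window, 1 of 2 listed for that gene, held 4 matches: E-boxes at 155 and 105 bases before the start, a D-box at 194 and a ROR and REV-ERB core at 133. PER2 had an E'-box 197 bases and a D-box 3 bases before the start, and NR1D1 had an E'-box 168 bases before it. All 10 members had at least 1 window among 35116 in the table, 14 windows in all. An E-box lay in 3 of the 14 member windows (PER1, NR1D2, BHLHE40), against 7.256% of all windows. An E'-box lay in 5 of the 14 (CLOCK, PER2, CRY1, CRY2, NR1D1), against 5.342% of all windows. D-boxes lay in 3 of the 14 member windows (PER2, PER3, NR1D2), against 1.011% of all windows. The ROR and REV-ERB core lay in 3 of the 14 (CLOCK, CRY2, NR1D2), against 5.687%. The cAMP response element TGACGTCA was in no member's window and in 1.848% of all windows, and the DBP window held none of these letters. Both strands were searched, no stretch can match both boxes at the same position, and a match is a string of letters, not a measured binding site.

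Libraries held between 30251364 and 60215785 counts. SLC6A3, the hairpin's target, had between 0 and 6 counts in every library, too few to check any label. Of 10 colon epithelium markers, EPCAM, CDH1, KRT8, KRT18, KRT19 and CDX2 were present, while CDX1, VIL1, LGALS4 and CEACAM5 stayed under 1 CPM (counts scaled to the library's effective total) in every library. The 5 leukocyte markers summed to at most 0.59 CPM. Of 4 fibroblast markers, COL1A1 had between 18.9 and 47.5 CPM, and COL1A2, PDGFRB and DCN stayed under 1 CPM. A pair of features accompanies the clock gene results below and is given here once. One is the 5 markers of dividing cells (MKI67, TOP2A, CCNB1, CDK1, BUB1), which summed to between 202 and 234 CPM in shCTRL V, 1253 and 1366 CPM in shDAT D, and 1334 and 1465 CPM in shCTRL D, so that 5 of 5 lay below both other groups in every shCTRL V library. The other is the library labelled shCTRL VXN replicate 2, which stood apart from the rest of shCTRL D. FOS, an immediate early gene, had 7.23, 7.39 and 5.81 CPM in shCTRL V, 535, 509 and 328 CPM in shDAT D, and 4.41, 4.06 and 508 CPM in shCTRL D, the last value being that of this library. The part of either in the clock gene results was not tested. In bulk RNA, fewer cells that express a gene and less of its RNA per cell cannot be told apart.

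Per length of merged exons, the members spanned a wide range of levels. BHLHE40 was the most abundant at 40.4 ± 18.6 CPM per kilobase (SD, n = 9 libraries), followed by NR1D2 at 20.9 ± 2.06 and NR1D1 at 19.7 ± 5.89 CPM per kilobase. PER1 (10.02 ± 3.58), CLOCK (9.39 ± 1.495) and CRY1 (6.90 ± 1.13 CPM per kilobase) came next, and PER2 (3.72 ± 0.61), DBP (3.06 ± 1.25), CRY2 (2.73 ± 0.43) and PER3 (1.08 ± 0.21 CPM per kilobase) were lowest. NR1D2 and NR1D1, PER1 and CLOCK, and DBP and its neighbours PER2 and CRY2 differed by less than the larger SD of each pair over libraries. With the longest transcript in place of merged exons, CRY2 rose past PER2 and DBP, at 4.02 ± 0.63 CPM per kilobase over the same 9 libraries.

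**Figure D1:**
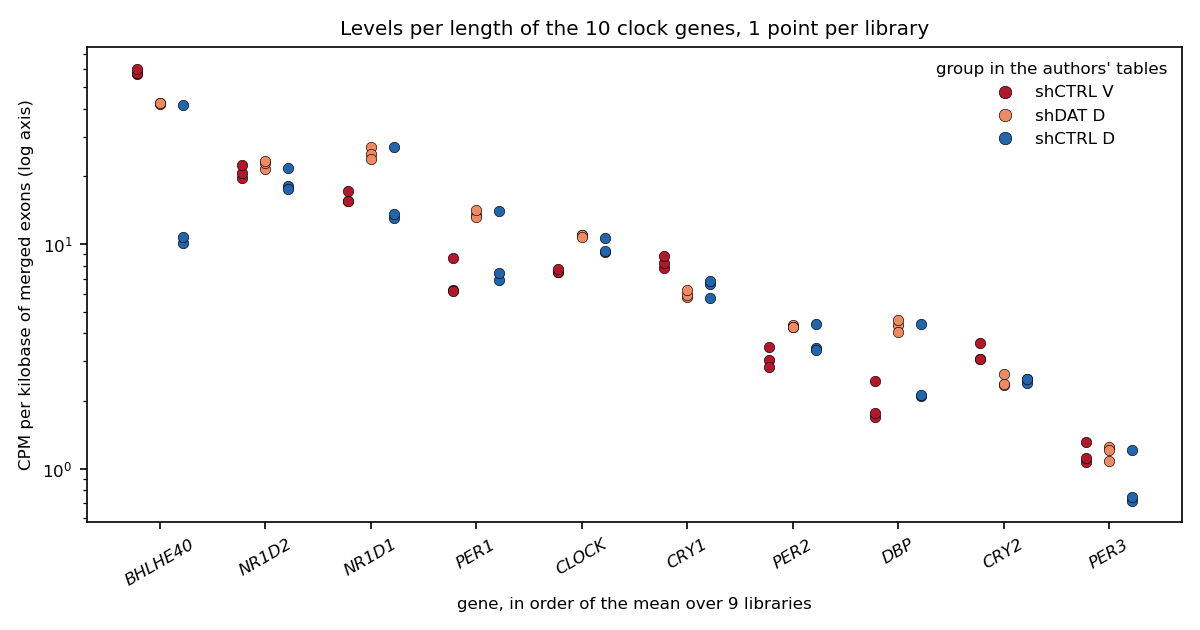
Levels of the 10 clock genes in CPM per kilobase of merged exons on a log axis, 1 point per library, coloured by the group of the authors' tables and ordered by the mean over 9 libraries. BHLHE40, with a mean of 40.4 CPM per kilobase, is highest in the mean, but its lowest shCTRL D libraries fall below NR1D2, and PER3 is lowest in the mean at 1.08 CPM per kilobase.

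CLOCK, the activator (ENSG00000134852.15, GRCh38 chromosome 4, 55427903 to 55547138, minus strand), had 88.0, 88.2 and 91.4 CPM in shCTRL V, 129, 129 and 126 CPM in shDAT D, and 109, 109.5 and 125 CPM in shCTRL D. The 3 table groups did not overlap, with shCTRL V lowest and shDAT D highest, but the last shCTRL D library, shCTRL VXN replicate 2, was nearer to the shDAT D libraries than to its own group. Among the inhibitors, PER1 (ENSG00000179094.16, chromosome 17, 8140472 to 8156506, minus strand) had 43.6, 43.1 and 60.5 CPM in shCTRL V, 94.1, 92.6 and 99.4 CPM in shDAT D, and 48.6, 51.7 and 97.7 CPM in shCTRL D. shCTRL VXN replicate 2 gave the high value of shCTRL D, inside the range of shDAT D, so shCTRL D overlapped both other groups. PER2 (ENSG00000132326.12, chromosome 2, 238244038 to 238290102, minus strand) had 21.0, 19.5 and 24.0 CPM in shCTRL V, 30.1, 29.4 and 29.3 CPM in shDAT D, and 23.7, 23.3 and 30.2 CPM in shCTRL D. Its pattern was that of PER1 with a smaller range, the highest library being 1.55 times the lowest for PER2 and 2.31 times for PER1. PER3 (ENSG00000049246.14, chromosome 1, 7784320 to 7845177, plus strand), the scarcest member, had 8.71, 9.002 and 10.6 CPM in shCTRL V, 8.74, 10.1 and 9.76 CPM in shDAT D, and 5.83, 6.07 and 9.85 CPM in shCTRL D. Here the shCTRL V and shDAT D libraries overlapped, and the low values were those of shSLC6A3 DMSO replicates 2 and 3.

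The cryptochromes, the partners of the PER proteins in repression, ran the other way from PER1 and PER2. CRY1 (ENSG00000008405.12, chromosome 12, 106991364 to 107093829, minus strand) had 39.6, 41.5 and 44.7 CPM in shCTRL V, 29.4, 30.04 and 31.7 CPM in shDAT D, and 33.6, 34.5 and 29.1 CPM in shCTRL D. CRY2 (ENSG00000121671.12, chromosome 11, 45847118 to 45883248, plus strand) had 19.0, 19.0 and 22.4 CPM in shCTRL V, 14.6, 14.7 and 16.4 CPM in shDAT D, and 15.5, 14.9 and 15.5 CPM in shCTRL D. For both, every shCTRL V library was above every other library, and the shDAT D and shCTRL D libraries overlapped.

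Of the REV-ERB pair, NR1D1 (ENSG00000126368.6, chromosome 17, 40092787 to 40100725, minus strand) had 42.9, 43.0 and 47.5 CPM in shCTRL V, 75.0, 69.9 and 65.9 CPM in shDAT D, and 36.1, 37.6 and 74.7 CPM in shCTRL D. The shCTRL V values lay between the 2 low libraries of shCTRL D and its high one, shCTRL VXN replicate 2. NR1D2 (ENSG00000174738.13, chromosome 3, 23945260 to 23980618, plus strand) had 114, 119.9 and 130.4 CPM in shCTRL V, 125, 133 and 136 CPM in shDAT D, and 106, 102 and 127 CPM in shCTRL D. It had the smallest range of the 10 members, the highest library being 1.33 times the lowest, and its groups overlapped.

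Of the output regulators, DBP (ENSG00000105516.11, chromosome 19, 48630030 to 48637438, minus strand) had 11.1, 11.5 and 15.98 CPM in shCTRL V, 28.4, 26.4 and 30.1 CPM in shDAT D, and 13.7, 13.9 and 28.8 CPM in shCTRL D. All shCTRL V libraries lay below all shDAT D libraries, and shCTRL VXN replicate 2 lay among the shDAT D libraries. BHLHE40 (ENSG00000134107.5, chromosome 3, 4979116 to 4985323, plus strand) had 218, 221 and 231 CPM in shCTRL V, 161, 162 and 163 CPM in shDAT D, and 38.7, 41.4 and 159 CPM in shCTRL D. The highest library was 5.98 times the lowest, the widest range of the 10 members. In shCTRL D, shCTRL VXN replicate 2 was just below the shDAT D libraries and far above the other libraries of its group.

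**Figure D2:**
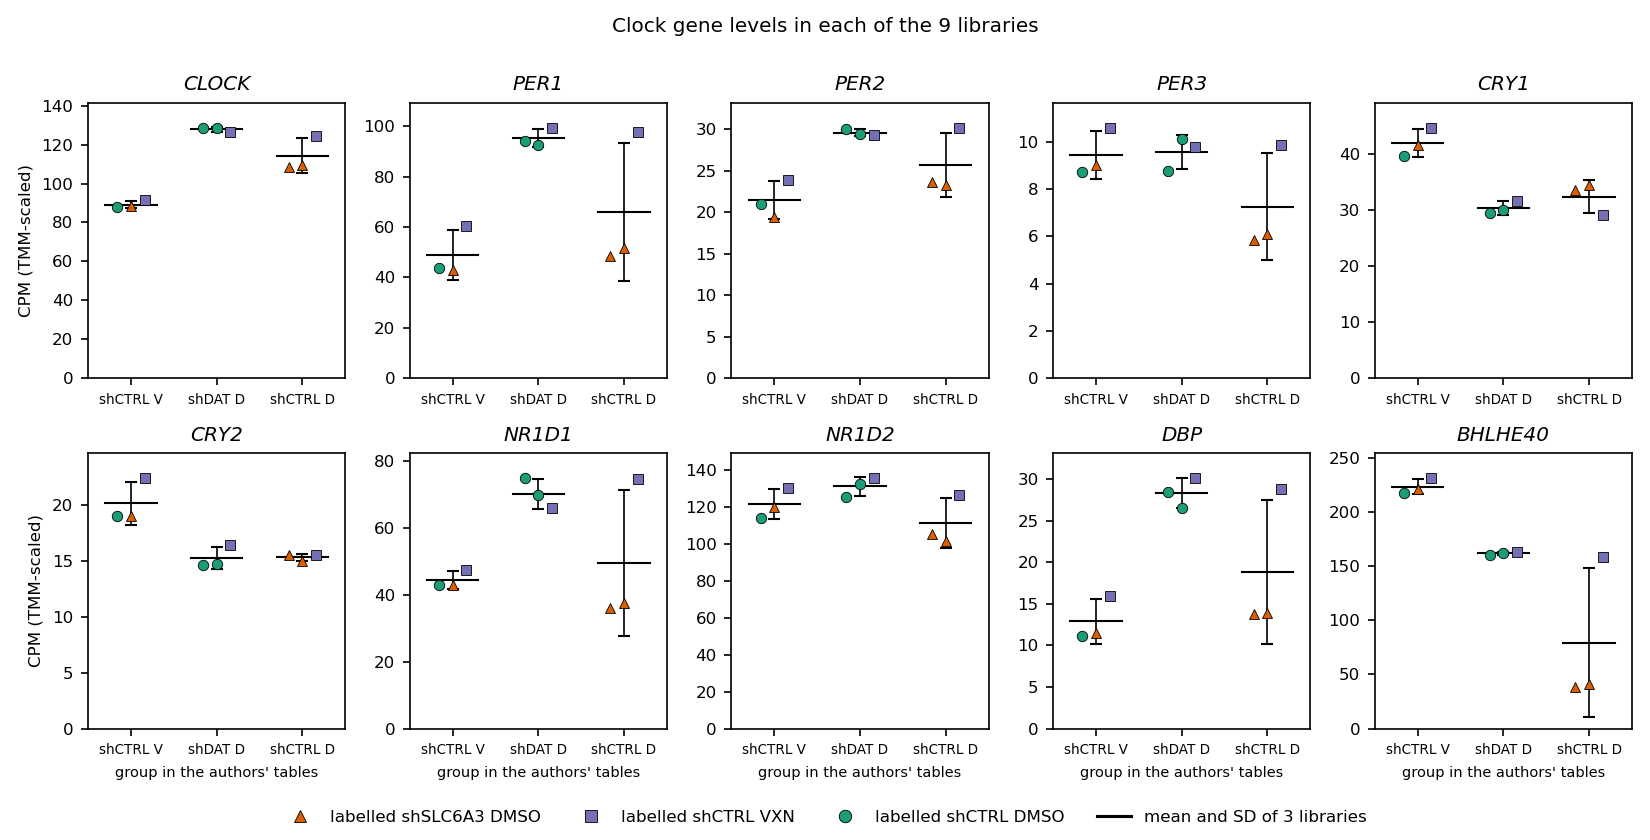
CPM of each clock gene (linear axes from 0) in the 9 libraries, placed by the group of the authors' tables, with marker shape and colour for the labelled group and black lines for mean and SD of 3 libraries. In shCTRL D the square, shCTRL VXN replicate 2, is apart from the triangles for PER1, NR1D1, DBP and BHLHE40, where it has 97.7, 74.7, 28.8 and 159 CPM.

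The first deposited comparison set shCTRL V against shCTRL D. CRY1, CRY2 and BHLHE40 were higher and CLOCK was lower in shCTRL V. CRY1 averaged 42.0 ± 2.54 CPM in shCTRL V and 32.4 ± 2.90 CPM in shCTRL D (SD, n = 3 each), a log2 fold change of 0.37 (95% interval 0.20 to 0.54, adjusted p = 0.00179, edgeR quasi-likelihood test with Benjamini-Hochberg adjustment). CRY2 rose by 0.39 on the log2 scale (0.21 to 0.58, edgeR adjusted p = 0.00217), with 20.1 ± 1.95 CPM in shCTRL V and 15.3 ± 0.31 CPM in shCTRL D (SD, n = 3 each). BHLHE40 averaged 224 ± 6.93 CPM in shCTRL V and 79.6 ± 68.5 CPM in shCTRL D (SD, n = 3 each), a log2 fold change of 1.49 (0.51 to 2.47, edgeR adjusted p = 0.0149). CLOCK fell by 0.36 on the log2 scale (edgeR adjusted p = 0.000589), with 89.2 ± 1.90 CPM in shCTRL V and 114 ± 8.91 CPM in shCTRL D (SD, n = 3 each).

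That made 3 of 10 members higher and 1 lower in shCTRL V, where edgeR called 28.0% of 20402 features higher and 26.6% lower. The 3 higher members were thus near that background and the 1 lower member below it. The members' median log2 fold change was -0.01, beside 0.02 over all features. The other members lay between -0.54 for DBP and 0.38 for PER3, with edgeR adjusted p between 0.0622 and 0.598. PER2 was next to the threshold at -0.26 (-0.50 to -0.02, edgeR adjusted p = 0.0622), and the authors' deposited table called it lower at -0.27 (SE 0.11, adjusted p = 0.0336). The authors' deposited table thus called 3 members higher and 2 lower, against 21.4% of its 24274 features with an adjusted p higher and 22.7% lower. It gave BHLHE40 a log2 fold change of 1.14 (SE 0.58) on its shrunken scale, in the authors' deposited table the largest among the members. Leaving out 1 library moved these calls: PER2 was called lower without replicate 3 of shCTRL VXN or without either of replicates 2 and 3 of shSLC6A3 DMSO (edgeR adjusted p between 0.0303 and 0.045), DBP without shSLC6A3 DMSO replicate 2 or 3 (0.0365 and 0.0415) and PER1 without shSLC6A3 DMSO replicate 2 (0.0464).

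shCTRL VXN replicate 2 moved them most. It was singled out after its values, those of BHLHE40 among them, were seen to stand apart. The fit without it leaves shCTRL D with 2 libraries, so narrow intervals and small p-values follow in part from that choice. Without this library, shCTRL V had 6 members higher (PER3, CRY1, CRY2, NR1D1, NR1D2, BHLHE40) and 1 lower (CLOCK), where 33.7% of features were higher and 29.7% lower. BHLHE40 then stood at a log2 fold change of 2.48 (2.38 to 2.59, edgeR adjusted p = 2.28e-12) and PER3 at 0.67 (0.44 to 0.89, edgeR adjusted p = 8.74e-05). NR1D1 changed sign, with -0.15 (edgeR adjusted p = 0.598) on all libraries and 0.27 (0.13 to 0.41, edgeR adjusted p = 0.00224) without this one. PER1 (-0.03), PER2 (-0.13) and DBP (-0.10) were then the 3 members not called. In the same libraries, each of the 5 markers of dividing cells lay lower in shCTRL V.

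The second deposited comparison set shDAT D against the same shCTRL D libraries. No member passed the threshold in edgeR, a DESeq2 rerun called 0 as well, and 5 of 10 members (CLOCK, PER1, NR1D2, DBP, BHLHE40) had an unadjusted p under 0.05. The background was also empty: edgeR called 0% of features higher and 0% lower, with 4251 of 20402 at an unadjusted p under 0.05. In the authors' deposited table, 1.0% of 10403 features with an adjusted p were higher and 5.62% lower, and 0 of 9 members with an adjusted p were called (PER3 had none). Member log2 fold changes ran from -0.09 for CRY1 to 1.03 for BHLHE40 (edgeR adjusted p between 0.197 and 0.975), with a median of 0.32 beside 0.01 over all features. On its shrunken scale, the authors' deposited table gave BHLHE40 0.03 (SE 0.10), and its largest member value was 0.15 for NR1D2 (SE 0.09). BHLHE40 averaged 162 ± 1.02 CPM in shDAT D and 79.6 ± 68.5 CPM in shCTRL D (SD, n = 3 each), and DBP averaged 28.3 ± 1.82 CPM in shDAT D and 18.8 ± 8.63 CPM in shCTRL D (SD, n = 3 each).

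Without shCTRL VXN replicate 2, edgeR called 8 members higher and 1 lower in shDAT D, where 21.9% of features were higher and 21.9% lower. BHLHE40 had a log2 fold change of 2.02 (1.91 to 2.12, edgeR adjusted p = 2.62e-10), DBP 1.03 (0.77 to 1.29, 3.11e-05), NR1D1 0.93 (0.80 to 1.07, 5.54e-07) and PER1 0.93 (0.68 to 1.18, 5.17e-05). These 4 encode the competitor at E-boxes, the D-box activator, REV-ERB alpha and an inhibitor of CLOCK. PER3 at 0.68, NR1D2 at 0.34, PER2 at 0.33 and CLOCK at 0.23 were also higher, with edgeR adjusted p between 0.000232 and 0.00244. CRY1 was lower at -0.17 (-0.29 to -0.04, edgeR adjusted p = 0.0321), and CRY2 was not called at 0.00 (-0.18 to 0.18, edgeR adjusted p = 0.994). The median over members was 0.51, beside 0.01 over all features. This fit leaves shCTRL D with 2 libraries, both labelled shSLC6A3 DMSO, whose FOS level was under 5 CPM. The share of members called, the intervals and the p-values rest on that choice of libraries, made after their values were seen.

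The shCTRL V and shDAT D libraries were also set against each other directly, which tests the difference between the 2 deposited comparisons. The shCTRL D means do not enter these fold changes. In the fit of all 9 libraries, however, shCTRL D enters the spread behind each interval and p-value. In shCTRL V, CRY1 and CRY2 were higher, and CLOCK, PER1, PER2, NR1D1 and DBP were lower. DBP showed the largest difference, with 12.9 ± 2.69 CPM in shCTRL V and 28.3 ± 1.82 CPM in shDAT D (SD, n = 3 each) and a log2 fold change of -1.13 (-1.72 to -0.55, edgeR adjusted p = 0.0038). PER1 averaged 49.1 ± 9.93 CPM in shCTRL V and 95.4 ± 3.55 CPM in shDAT D (SD, n = 3 each), a log2 fold change of -0.96 (-1.49 to -0.43, edgeR adjusted p = 0.00564). CLOCK fell by 0.52 (edgeR adjusted p = 4.11e-05) and PER2 by 0.46 (0.00383) on the log2 scale, while CRY1 rose by 0.47 (0.000405) and CRY2 by 0.40 (0.00197).

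These were 2 of 10 members higher and 5 lower, where 28.8% of all features were higher and 28.7% lower; the members' median was -0.29, beside 0.00 over all features. NR1D1 at -0.66 (edgeR adjusted p = 0.0304) lost its call when any 1 of the 6 libraries was left out (adjusted p between 0.0536 and 0.0884). BHLHE40, at 224 ± 6.93 CPM in shCTRL V and 162 ± 1.02 CPM in shDAT D (SD, n = 3 each), was not called at 0.47 (-0.49 to 1.42, edgeR adjusted p = 0.384), although the groups did not overlap. In that fit the spread of a gene is shared by all 9 libraries, shCTRL D included. Fitted on the 6 libraries alone, BHLHE40 was higher at 0.47 (edgeR adjusted p = 9.47e-07) and NR1D1 lower at -0.66 (1.29e-06). The shares of all features above are those of the fit of 9 libraries and are no background for these calls. How these 2 calls stand beside all features in the fit of 6 libraries is not shown. In the fit of 9 libraries, PER3 and NR1D2 were not called, at -0.01 (-0.42 to 0.39) and -0.11 (-0.30 to 0.08). In this comparison, too, 5 of 5 markers of dividing cells were lower in shCTRL V, and FOS had at most 7.39 CPM there against at least 328 CPM in shDAT D.

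**Figure D3:**
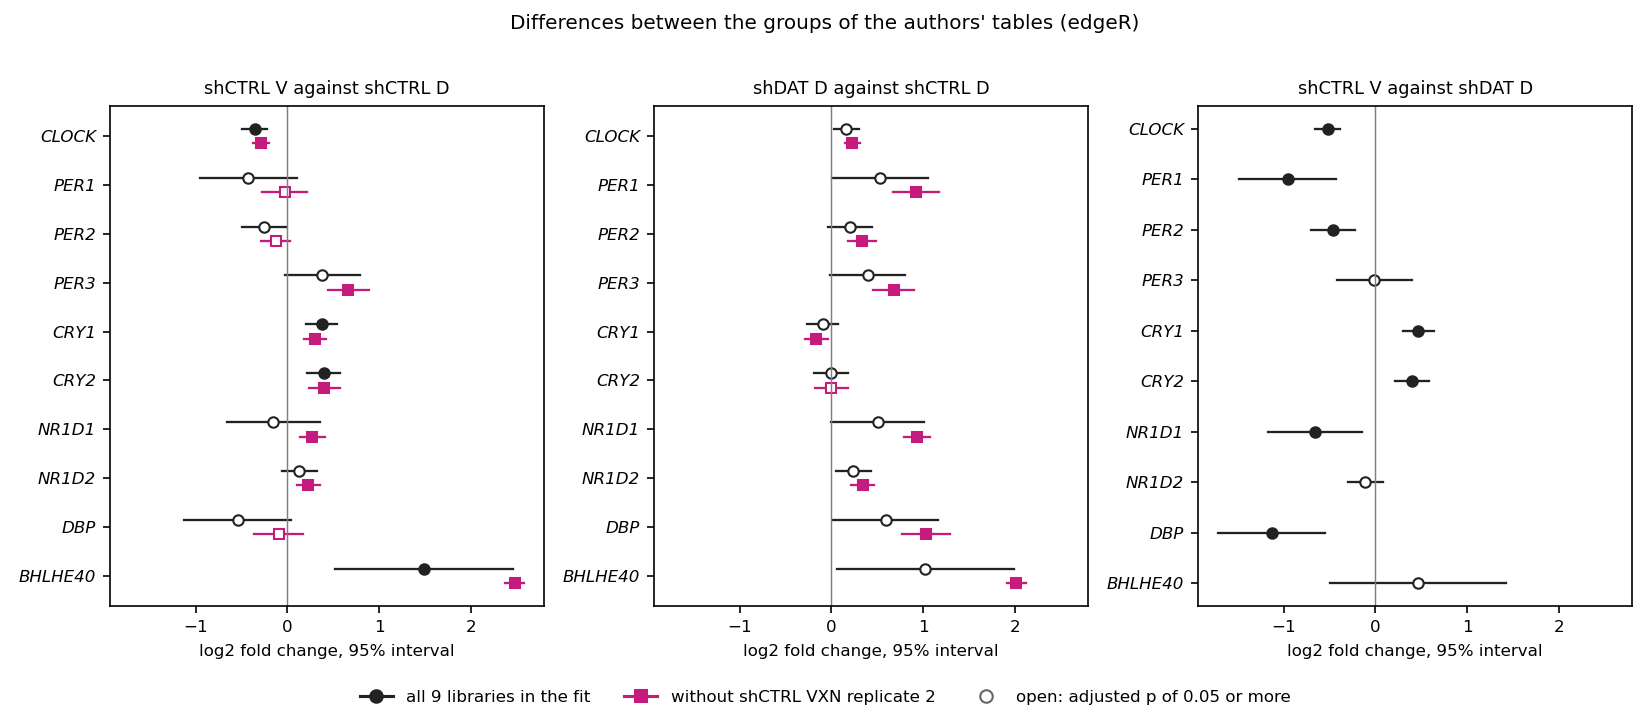
Log2 fold changes of the clock genes with 95% intervals for the table groups (edgeR), with all 9 libraries in the fit (black circles) and, in the first 2 panels, without shCTRL VXN replicate 2 (magenta squares); filled symbols passed an adjusted p of 0.05. Without that library, singled out after its values were seen, BHLHE40 moves to 2.48 for shCTRL V and 2.02 for shDAT D, and its interval becomes narrow.

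By the labels, no member was called. For shSLC6A3 DMSO against shCTRL DMSO, edgeR called 0 of 10 members, DESeq2 called 0, and 1 member (NR1D1) had an unadjusted p under 0.05; the background was 0% higher and 0% lower, with 930 of 20402 features at an unadjusted p under 0.05. NR1D1 averaged 38.9 ± 3.62 CPM in shSLC6A3 DMSO and 62.6 ± 17.2 CPM in shCTRL DMSO (SD, n = 3 each), a log2 fold change of -0.69 (-1.23 to -0.14, edgeR adjusted p = 0.978). PER1 averaged 47.8 ± 4.37 CPM in shSLC6A3 DMSO and 76.8 ± 28.8 CPM in shCTRL DMSO (SD, n = 3 each), at -0.68 (-1.39 to 0.03, edgeR adjusted p = 0.978). BHLHE40 averaged 100.4 ± 104.5 CPM in shSLC6A3 DMSO and 180.3 ± 32.8 CPM in shCTRL DMSO (SD, n = 3 each), at -0.85 (-2.30 to 0.61, edgeR adjusted p = 0.987), with 221, 38.7 and 41.4 CPM in the libraries labelled shSLC6A3 DMSO. Of the 10 members, 2 had a positive log2 fold change (CRY1 at 0.15 and CRY2 at 0.03), and the median was -0.34, beside -0.01 over all features.

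For shCTRL VXN against shCTRL DMSO, edgeR called 0 members, DESeq2 called 0, and 0 had an unadjusted p under 0.05, where 384 of 20402 features did. The background was 0% higher and 0.00980% lower, which is 2 features, neither of them a member. Same-numbered libraries of these groups deviated together over all features, and with the replicate number as a block in a fit of the 6 libraries, chosen after seeing the data, edgeR called 0.549% of features higher and 0.353% lower, and again 0 members. In that fit PER1 was at 0.20 (edgeR adjusted p = 0.176) and DBP at 0.22 (edgeR adjusted p = 0.193), the members with the lowest adjusted p. Log2 fold changes ran from -0.01 for CLOCK to 0.18 for DBP, with a median of 0.08 beside 0.00 over all features. NR1D2 had the narrowest interval, at 0.08 (-0.16 to 0.31), and BHLHE40 the widest, at 0.03 (-1.41 to 1.48), which takes in changes of more than 2-fold in either direction. BHLHE40 averaged 184 ± 40.8 CPM in shCTRL VXN and 180.3 ± 32.8 CPM in shCTRL DMSO (SD, n = 3 each). The table group shCTRL V holds 1 library of each label, and there shCTRL VXN replicate 3 had the highest level of every member. BHLHE40 had 221 CPM in shSLC6A3 DMSO replicate 1, 231 CPM in shCTRL VXN replicate 3 and 218 CPM in shCTRL DMSO replicate 3. PER1 had 43.1, 60.5 and 43.6 CPM in the same libraries and DBP 11.5, 15.98 and 11.1 CPM. Each of these values is that of 1 library.

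**Figure D4:**
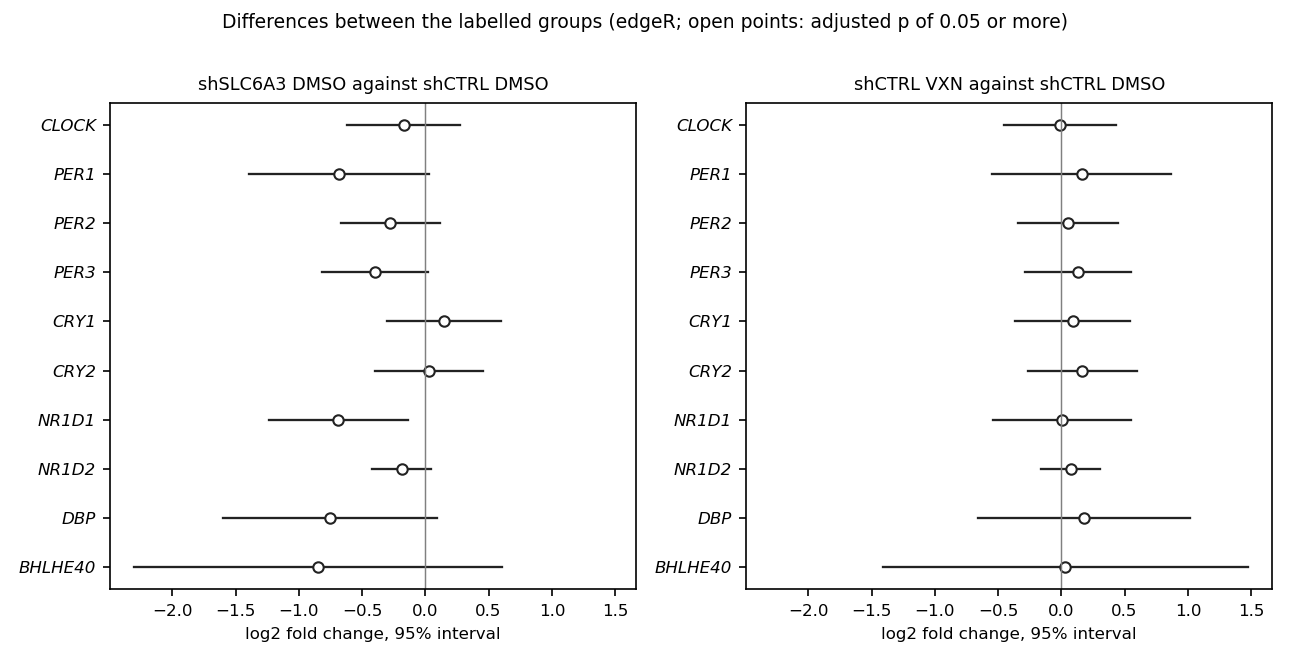
Log2 fold changes of the clock genes with 95% intervals between labelled groups (edgeR, all 9 libraries in the fit); open circles did not pass an adjusted p of 0.05, and none is filled. The points for shSLC6A3 DMSO run from -0.85 for BHLHE40 to 0.15 for CRY1, and those for shCTRL VXN from -0.01 to 0.18.

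Of 24 other clock genes, 21 passed the filter on low counts; RORA and RORB stayed under 0.07 CPM, and FBXL21P was at 0. In shCTRL V against shCTRL D, edgeR called 9 of the 21 higher and 7 lower (list median 0.12), where 28.0% of all features were higher and 26.6% lower (median 0.02). In shCTRL V against shDAT D it called 10 higher and 8 lower (list median -0.17), where 28.8% of all features were higher and 28.7% lower (median 0.00). ARNTL, the partner of CLOCK and a target of REV-ERB repression, had 39.4, 42.1 and 39.2 CPM in shCTRL V, 12.2, 11.6 and 13.1 CPM in shDAT D, and 22.5, 22.2 and 11.6 CPM in shCTRL D. The order of its group means was the inverse of that of CLOCK. The last shCTRL D library, shCTRL VXN replicate 2, was level with the lowest shDAT D library, so these groups overlapped. The log2 fold change of ARNTL was 1.099 (0.66 to 1.54, edgeR adjusted p = 0.0008) for shCTRL V against shCTRL D and 1.71 (1.26 to 2.17, edgeR adjusted p = 4.47e-05) against shDAT D. The authors' deposited table also called ARNTL for shDAT D against shCTRL D, at -0.48 (SE 0.24, adjusted p = 0.0394), as 1 of 16 other clock genes with an adjusted p.

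NFIL3, the repressor that competes with DBP for D-boxes, had 73.2, 73.4 and 75.7 CPM in shCTRL V, 33.1, 34.2 and 38.7 CPM in shDAT D, and 34.4, 36.4 and 30.5 CPM in shCTRL D, a log2 fold change of 1.14 for shCTRL V against shCTRL D (edgeR adjusted p = 8.6e-07). TEF and HLF, the D-box activators related to DBP, moved apart in shCTRL V against shCTRL D: TEF rose by 0.68 (edgeR adjusted p = 0.000699) and HLF fell by 0.90 (0.00612) on the log2 scale. TIMELESS, known in mammals chiefly for its work in DNA replication, was the lowest at -1.64 (edgeR adjusted p = 6.23e-09), with 41.4, 40.8 and 40.7 CPM in shCTRL V and 130.2, 131 and 122 CPM in shCTRL D. ARNTL2, a paralog of ARNTL, was lower at -0.50 (0.00094) and NONO, an RNA-binding partner of the PER proteins, at -0.55 (edgeR adjusted p = 1.99e-05). Among the enzymes that set the stability of PER and CRY, the kinases GSK3B at 0.61 (5.68e-06) and CSNK1D at 0.32 (0.000526) and the F-box protein BTRC at 0.41 (edgeR adjusted p = 0.000257) were higher in shCTRL V. FBXW11, a paralog of BTRC, was also higher at 0.21 (edgeR adjusted p = 0.00837), while USP2, a deubiquitinase of clock proteins, was lower at -0.53 (edgeR adjusted p = 0.0283). The kinases CSNK1E at -0.14 (adjusted p = 0.134) and PRKAA1 at -0.16 (edgeR adjusted p = 0.0693) were not called; these 4 genes were named after their values were seen. SIRT1, a deacetylase that acts on the clock proteins, was higher at 0.33 (edgeR adjusted p = 0.00248).

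In shDAT D against shCTRL D, edgeR called 0 of these 21 genes, with 5 at an unadjusted p under 0.05 (list median -0.04). Without shCTRL VXN replicate 2, a choice made after its values were seen, 4 were higher and 6 lower, against 21.9% of all features in each direction. HLF at 0.99, USP2 at 0.56 and CSNK1E at 0.24 on the log2 scale were among the higher ones. ARNTL was lower at -0.87 (-1.001 to -0.73, edgeR adjusted p = 7.5e-07), while for shCTRL V against shCTRL D, also without shCTRL VXN replicate 2, it was higher at 0.85 (edgeR adjusted p = 4.17e-08). NR1D1 was called higher in both of these fits, at 0.93 and 0.27. In both labelled comparisons edgeR called 0 of the 21, with 0 at an unadjusted p under 0.05.

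**Figure D5:**
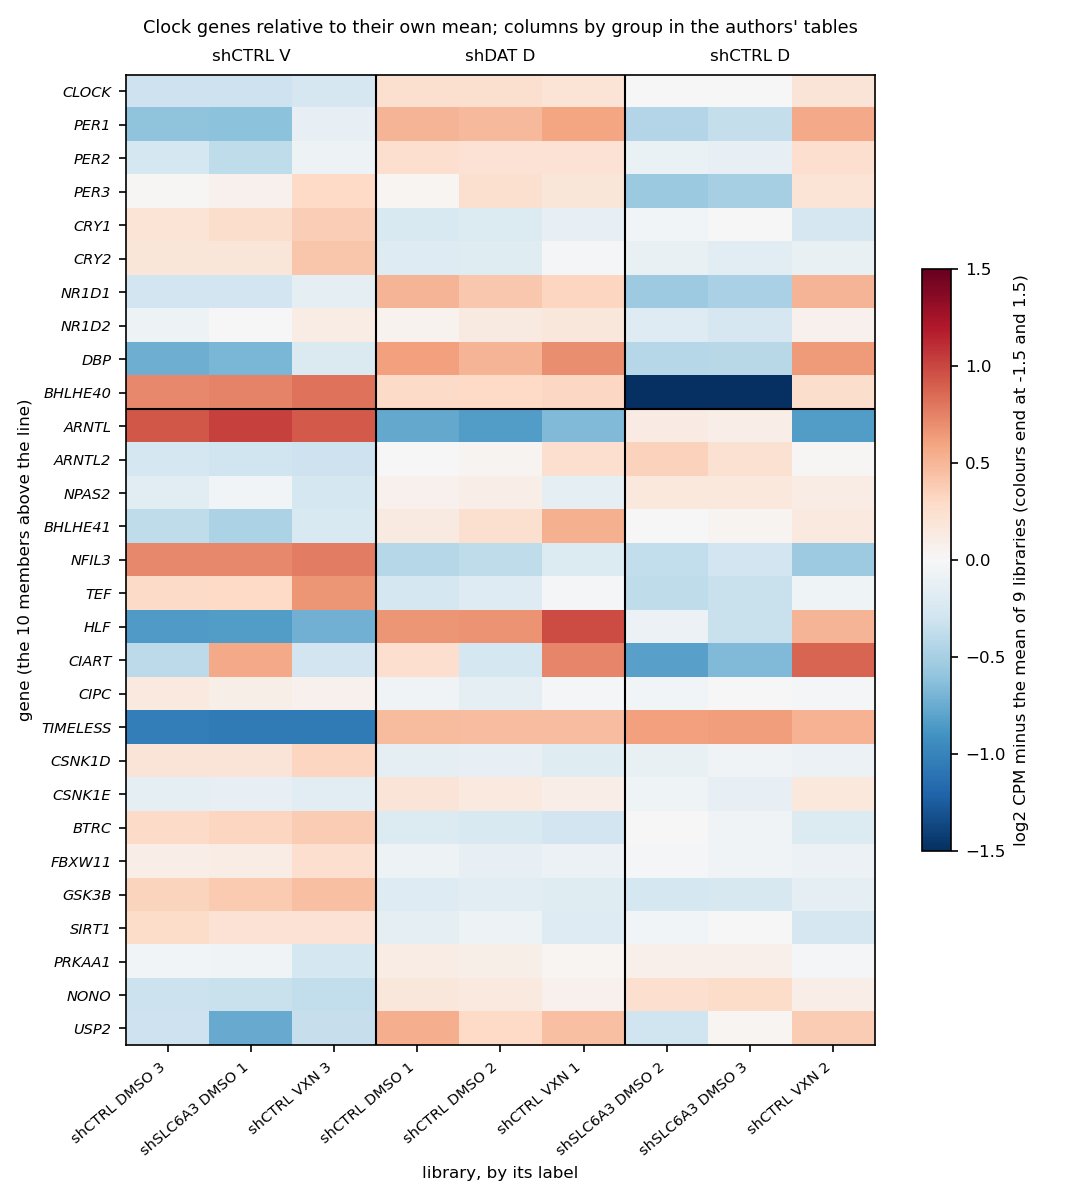
Log2 CPM of the 10 clock genes (above the line) and of other clock genes past the filter, each minus its mean over 9 libraries, in columns by the group of the authors' tables and named by label; the colours end at -1.5 and 1.5. In the last column, shCTRL VXN replicate 2, BHLHE40, PER1, DBP and NR1D1 are coloured as in the shDAT D columns, with 159, 97.7, 28.8 and 74.7 CPM.

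Over the 9 libraries, 3 pairs of members were most alike. The smallest root mean square difference between centred log2 CPM was 0.08 for PER1 with DBP, then 0.09 for CLOCK with PER2 and 0.09 for CRY1 with CRY2. The next pair was PER3 with NR1D2 at 0.17, BHLHE40 came no nearer to any member than 0.68 (PER3), and the largest was 1.01 for CLOCK with BHLHE40. Among 9951 genes with a mean of at least 10 CPM, the gene nearest to BHLHE40 was ATF3 (0.21 on the log2 scale over 9 libraries), that nearest to NR1D1 was BTG2 (0.06) and that nearest to PER1 was IRS1 (0.08). F2RL1 was nearest to CLOCK (0.03), PPFIA3 to PER2 (0.05), HBE1 to PER3 (0.07), KCNK1 to CRY1 (0.03), WIPI2 to CRY2 (0.04), GPATCH2L to NR1D2 (0.04) and UCA1 to DBP (0.11). By correlation instead, the nearest gene was another for 9 members and HBE1 again for PER3. The libraries of a trio are alike across many genes, so these distances describe the 9 libraries.

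The library kit keeps no strand, so reads from exons that a member shares with another gene cannot be told apart. In GENCODE v29, NR1D1 shares 263 bases (9.488% of its merged exons) with THRA, the thyroid hormone receptor gene on the opposite strand, DBP shares 661 bases (10.1%) with SPHK2, and PER3 shares 868 bases with UTS2 and 482 with an antisense gene (16.67% in all). For the other members the share was at most 2.734%. THRA had 18.1, 18.1 and 20.4 CPM in shCTRL V, 35.2, 33.1 and 33.6 CPM in shDAT D, and 31.0, 33.1 and 37.3 CPM in shCTRL D. Like NR1D1, THRA was lower in shCTRL V than in shDAT D, at -0.84 on the log2 scale (edgeR adjusted p = 8.92e-06). Unlike NR1D1, it was not low in shSLC6A3 DMSO replicates 2 and 3. SPHK2 lay between 8.52 and 13.4 CPM and UTS2 between 1.85 and 4.62 CPM in all 9 libraries.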

How the data were processed

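Per the labels, RNA was made into libraries with a TruSeq RNA v2 kit for an Illumina NextSeq instrument. The submitters' processing notes name fastp 0.20.1, FastQC 0.11.9, STAR without a version, DESeq2 1.34.0 and GRCh38 (hg38). The sources used here name no counting program or annotation release. Raw counts deposited by the authors cover 61832 genes and repeat subfamilies in 9 libraries. The log2 fold changes, p-values and adjusted p-values in the authors' deposited tables come from DESeq2, per the submitters' processing notes, and the base mean (a mean signal of normalised counts) was deposited by the authors beside them.

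Counts were scaled by TMM and tested with edgeR 4.0.16 (quasi-likelihood, R 4.3.3) in 1 fit of 9 libraries per grouping, by label and by table trio. filterByExpr (minimum count 10) kept 20402 features, 19488 of them genes, and adjustment by Benjamini-Hochberg ran over all of them with a threshold of 0.05. CPM use TMM-scaled totals. SEs and 95% intervals were derived from the test statistic. The trios were given with the choice of members and were checked by a DESeq2 1.42.0 rerun against the deposited p-values. The trios therefore come from the deposited values and not from the labels. Exon lengths and overlaps come from GENCODE v29 on GRCh38, and promoter windows from RefSeq on GRCh38.p14. The main fit of each grouping was tested on simulated data with known changes, and the alternative fits were not. Apart from those changes, simulated libraries shared the same mean, with a spread taken from the table trios. The simulation therefore cannot tell how well the labelled fit finds changes in these data.

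The members and lists were chosen with earlier results of these data known. Named genes are the 10 members, at most 12 other clock genes by adjusted p (some items are not reported here) and, for each member, the gene of at least 10 mean CPM with the smallest root mean square difference in centred log2 CPM (prior count 2). Alternatives were DESeq2, RLE size factors, no filter, fits of only the groups compared, leaving out each library, a replicate block, the longest transcript as length, and correlation as likeness. Libraries held between 30251364 and 60215785 counts. The correlations of deviations from the group means, for libraries of the same replicate number, were 0.856, 0.89 and 0.954 between shCTRL VXN and shCTRL DMSO, so the numbers were taken to pair these groups, from the data and not from the labels. Between shSLC6A3 DMSO and shCTRL DMSO they were -0.817, 0.812 and -0.808, which is no pairing.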

Additional observations from a re-analysis of the deposited data

How the results depend on the processing

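The members' results between table groups depended on shCTRL VXN replicate 2, and the cause was not tested. Leaving out each library of a pair in turn gave between 3 and 6 members higher and between 1 and 4 lower for shCTRL V against shCTRL D, and between 0 and 8 higher and 0 and 1 lower for shDAT D against shCTRL D. Over all features the shDAT D comparison gave between 0 and 4473 higher and between 0 and 4472 lower. NR1D1 lay between -0.34 and 0.27 for shCTRL V against shCTRL D, the reversed value being that without shCTRL VXN replicate 2. For that pair 2 members were lower with DESeq2 (5539 of 20377 features), 2 with RLE size factors (5648 of 20402) and 4 with no filter on low counts (5805 of 38943); without 1 library, between 4998 and 6874 features were higher and between 4763 and 6053 lower. For shDAT D against shCTRL D, DESeq2 called 138 features higher and 457 lower, and the fit with no filter called 231 higher, 459 lower and 1 member higher (BHLHE40, adjusted p = 0.0323). For shCTRL V against shDAT D, leaving out a library gave 2 members higher and 4 lower, with between 5137 and 5422 features higher and between 5155 and 5335 lower.

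For shCTRL VXN against shCTRL DMSO, DESeq2 called 10 features higher and 10 lower; no filter, only the 2 groups compared and the replicate block each called 0 lower, as did every fit without 1 of the libraries compared. For shSLC6A3 DMSO against shCTRL DMSO, between 0 and 9 features were lower without 1 library. No member was called in either labelled comparison under any alternative, and their uncalled values for shCTRL VXN changed sign in several. With the replicate block and only those groups compared, an alternative added after seeing the data, shCTRL VXN against shCTRL DMSO gave 112 features higher and 72 lower and no called member. For shSLC6A3 DMSO the numbers were not taken to pair the libraries, and with the replicate block 0 members were called and NR1D1 stood at -0.64.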

Other observations

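TMEM165, which lies on the opposite strand and shares 76 exon bases with CLOCK, had 69.9, 71.6 and 67.2 CPM in shCTRL V, 36.5, 34.3 and 37.7 CPM in shDAT D, and 59.6, 60.7 and 33.4 CPM in shCTRL D. CLOCK had between 88.0 and 91.4 CPM in shCTRL V, between 126 and 129 CPM in shDAT D, and 109, 109.5 and 125 CPM in shCTRL D, so the neighbour was high where CLOCK was low. No test of the pair was made.

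Among the members, BHLHE40 separated the 9 libraries into levels of 38.7 to 41.4 CPM, 159 to 163 CPM and 218 to 231 CPM. The middle level held the 3 shDAT D libraries and shCTRL VXN replicate 2, the high level the shCTRL V libraries, and the low level shSLC6A3 DMSO replicates 2 and 3. Each of the labels has libraries at 2 or more of these levels: shSLC6A3 DMSO at the low and high ones, and shCTRL VXN and shCTRL DMSO at the middle and high ones.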
